A study of Mus musculus with 22 samples.

Results

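The adult mice of this study allow one question to be put directly: whether loss of Tcf7l2 in the liver changes the way liver genes respond to a 24 h fast. The comparison used all 14 adult arrays of the 22 arrays in the series, and it took the difference between knockout and control in the fasted state minus the same difference in the fed state, a genotype by fasting interaction. Controls were C57BL/6 mice with both Tcf7l2 alleles flanked by loxP sites and no Cre (loxP/loxP). Knockouts carried the same floxed alleles and SA-CreERT2, a Cre recombinase that tamoxifen switches on, and are titled LTCF4KO. All adult mice, controls included, received tamoxifen at 3 weeks of age and were studied 1 to 2 months later, either after 24 h without food or with food freely given. There were 4 fasted controls, 4 fasted knockouts, 3 fed controls and 3 fed knockouts, labelled as biological replicates. Each array carried liver RNA in Cy3 and the Stratagene mouse reference RNA, common to all arrays, in Cy5, so every level below is a log2 ratio of liver over reference.

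Tcf7l2, also called TCF4, is the transcription factor through which Wnt and beta-catenin signals reach many of their target genes. In the liver lobule, Wnt signals are strongest next to the central vein, where hepatocytes make glutamine and carry out much of the drug metabolism, whereas urea synthesis, gluconeogenesis and amino acid breakdown are richest in periportal hepatocytes. Fasting acts on the same hepatocytes through falling insulin, rising glucagon and glucocorticoids and the fatty acid receptor Ppara, and it moves the liver from lipid synthesis to fatty acid oxidation, ketone production and glucose output. Bulk liver RNA was measured, so fewer cells of a type and less RNA per cell cannot be told apart.

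Several properties of the arrays bear on what follows. Fed and fasted livers were on different slides: slides 1 and 2 held 2 fasted controls and 2 fasted knockouts each, slide 3 held 1 fed control with 2 fed knockouts, and slide 4 held 2 fed controls with 1 fed knockout. Feeding state and slide therefore cannot be told apart in a fasting change. Each slide held both genotypes, but the main fit had no slide term. Fed genotypes were unequal over slides 3 and 4, so slide and genotype are partly mixed in the fed difference. Only an alternative fit with slide as a block compared knockout with control within slides. The liver channel was well above background for 50.2% to 62.0% of spots on fasted arrays and 22.8% to 31.2% on fed arrays, and negative-control spots stood 18 to 29 intensity units above their local background on fasted arrays and 88 to 180.5 units on fed arrays. Fed knockout 3 had the highest negative-control signal of all 14 arrays and fed knockouts 1 and 2 had the lowest of the fed arrays. The second principal component, with 11.2% of the variance, set fasted knockouts 1 and 2 (both on slide 1) apart at scores of -39.6 and -36.2 from fasted knockouts 3 and 4 at -2.85 and 1.82. The third, with 6.37%, set fed knockouts 1 and 2 at -27.3 and -21.6 apart from fed knockout 3 at 8.42.

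The Tcf7l2 probe used here, at chr19:56007586-56007645 of the mm9 build, was well above background on all 14 arrays. Its level was -0.13, 0.09, 0.03 and -0.10 in fasted controls, 0.63, -0.15, 0.22 and 0.57 in fasted knockouts, -0.37, -0.06 and -0.64 in fed controls against 0.01, -0.35 and -0.13 in fed knockouts. The knockouts were not lower, and the interaction was 0.14 ± 0.26 (SE; 95% interval -0.43 to 0.71; limma, unadjusted p = 0.601). The labels do not say which exon recombination removes, so this probe cannot check the genotype, and the groups are named by their labels.

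No gene passed the test of the interaction on its brightest probe. Of 17188 genes tested with limma, 0 had a Benjamini-Hochberg adjusted p under 0.05 (0% called, smallest adjusted p 0.359), while 1134 genes (6.6%) had an unadjusted p under 0.05, 473 of them higher (2.75%) and 661 lower (3.85%). With each of 25135 probes tested on its own, a setting added after the data were seen, 3 probes passed (0.0119%), all of them of Slc1a2, which is described with the pericentral genes. The knockout change itself was called for 82 genes in fasted liver (0.477%), 19 higher (0.111%) and 63 lower (0.367%), a split that turned to 120 higher and 29 lower with flagged local backgrounds kept, and for 37 in fed liver (0.215%), 5 higher (0.0291%) and 32 lower (0.186%). Fasting changed 6327 genes in controls (36.8%) and 6138 in knockouts (35.7%). In controls 3466 were higher (20.2%) and 2861 lower (16.6%), a split that became 7383 against 1712 with processed signals and 6428 against 2639 with median centring. In knockouts 3213 were higher (18.7%) and 2925 lower (17%). That split became 7179 against 1887 with processed signals and 7057 against 2071 with median centring. Median centring also moved the median interaction of all genes from -0.01 to 0.09, and turned the unadjusted split of 473 higher and 661 lower into 1131 and 372. Over all 17188 genes the interaction lay above 0 for 8215 and below 0 for 8973. A gene's interaction had a median SE of 0.23, so the 95% interval reached a median of 0.497 to either side, and it lay wholly within a log2 difference of 1 for 75.6% of genes. The 10 leading genes in each direction were ranked by their unadjusted interaction p among genes measured in both feeding states; the other genes named below come from the gene lists, whether or not they were measured in both states.

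**Figure D1:**
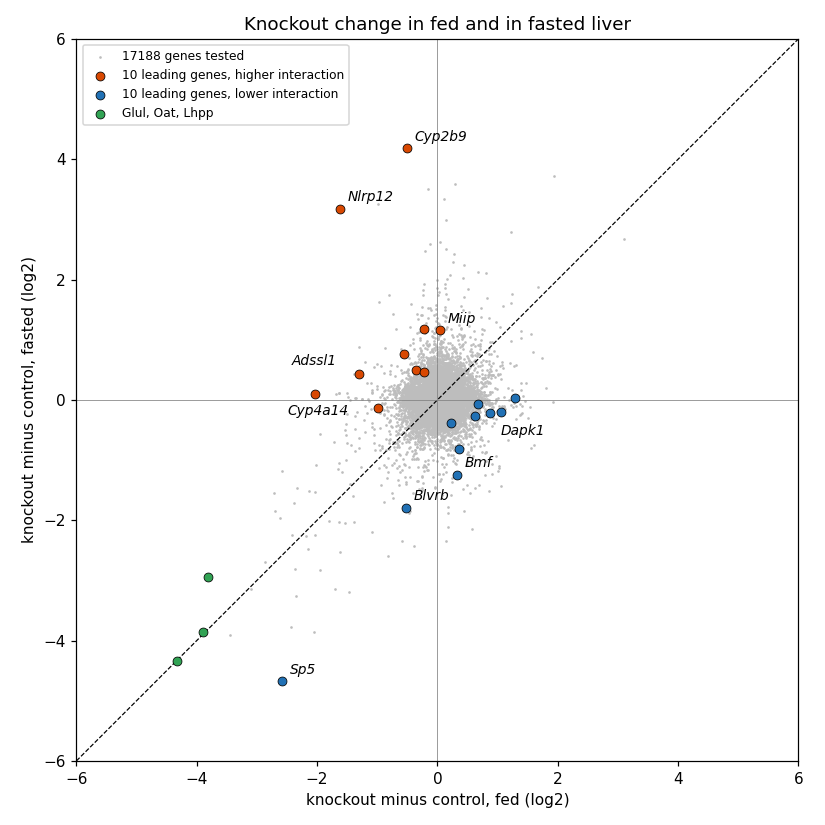
Knockout minus control in fed liver (x axis, log2) against the same in fasted liver (y axis, log2) for 17188 genes in grey, with the 10 leading genes of higher interaction in orange, the 10 of lower interaction in blue, and Glul, Oat and Lhpp in green. Points on the dashed line changed by the same amount in both states: Oat and Lhpp lie on it, Cyp2b9 lies far above it and Sp5 below it.

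Among the genes called for the knockout change in both states, 22 were lower and 1, Sdsl, was higher in both. Their 23 interactions ran from -2.09 to 0.88 with a median of 0.03, and 22 lay within a log2 difference of 1. An unadjusted interaction p under 0.05 was reached by 7 of the 23, 3 lower and 4 higher (3.85% and 2.75% of all genes). Oat, Lhpp and Glul, genes of pericentral hepatocytes, were lower in knockouts in both states; the interactions of Oat and Lhpp lay near 0, and that of Glul was the highest of the 23. Oat, ornithine aminotransferase, was lower by log2 -3.86 in fasted and -3.89 in fed knockouts, an interaction of 0.03 ± 0.35 (SE; 95% interval -0.72 to 0.78). For Lhpp, a phosphatase, both knockout changes were -4.33, and the interval of the interaction was -0.77 to 0.76. The sign of the interaction of Oat and Lhpp turned under several settings. Glul, glutamine synthetase and the classic marker of the innermost pericentral hepatocytes, stood at 4.18, 3.77 and 4.76 in fed controls, 0.53, 0.45 and 0.28 in fed knockouts, 3.90, 4.47, 5.14 and 4.64 in fasted controls against 0.96, 1.44, 2.36 and 1.63 in fasted knockouts. All 7 knockout arrays were below all 7 control arrays, and the 4 fasted knockouts were above the 3 fed ones. The interaction of Glul was 0.88 ± 0.47 (SE; 95% interval -0.13 to 1.89; limma, unadjusted p = 0.0832), with knockout changes of -2.94 fasted and -3.82 fed.

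Sp5 led the genes of lower interaction. It encodes a zinc finger factor that Wnt signals induce directly, and its probe lies at chr2:70315688-70315747 (mm9). The stretch of 250 bases before its start (RefSeq, GRCm38.p6, chr2:70474673-70474922, plus strand) is shown because it holds the letters of a TCF/LEF element, the motif that Tcf7l2 and its relatives bind; capitals mark the match CTTTGAT, 104 to 98 bases before the start.
Sp5: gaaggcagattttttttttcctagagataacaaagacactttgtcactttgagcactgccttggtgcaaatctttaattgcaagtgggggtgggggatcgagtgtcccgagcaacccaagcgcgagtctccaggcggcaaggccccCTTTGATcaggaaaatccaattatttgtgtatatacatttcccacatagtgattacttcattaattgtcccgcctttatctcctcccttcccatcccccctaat
A search for CTTTGAA or CTTTGAT on both strands of the same window found a match in 7.48% of 32851 RefSeq promoters and in 3 of the 17 leading genes that have an entry, Sp5, Blvrb and Nlrp12. The share is per promoter, whereas a gene was counted if any of its promoters matched, so the numbers are not like for like. A match is not a binding site.

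Levels of Sp5 were 2.40, 2.58 and 2.22 in fed controls and 4.03, 4.02, 5.26 and 4.14 in fasted controls, against -0.51, 0.04 and -0.09 in fed knockouts and -0.14, -0.40, -0.42 and -0.30 in fasted knockouts. Fasted controls were above fed controls on every array, and both knockout groups lay together below them. In controls fasting raised Sp5 by 1.96 (limma, adjusted p = 0.000131). No knockout array had Sp5 well above background, so the knockout side has only a bound: Sp5 was at least 14.6-fold higher in fasted controls than in fasted knockouts (adjusted p = 3.62e-07) and at least 1.79-fold higher in fed controls than in fed knockouts (adjusted p = 0.000586), each bound set by the lowest signal that was well above background. Measured group differences were -4.68 fasted and -2.58 fed, which gave an interaction of -2.09 ± 0.36 (SE; adjusted p = 0.359). Leaving out fasted control 3, the highest array, brought it to -1.80 with an adjusted p of 0.0121 in limma. The interaction of Sp5 was -0.07 with flagged backgrounds kept and -0.44 with the liver channel alone.

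Slc13a3 and Lgr5 had the same form. Slc13a3, a sodium-coupled dicarboxylate carrier, had the smallest interaction p of the 17188 genes on their brightest probes (limma, unadjusted p = 4.72e-05), but it was well above background only on the 4 fasted controls. Its levels were 2.38, 2.81, 2.17 and 2.61 there, 0.07 to 0.21 in fasted knockouts, 0.50, 0.94 and 1.23 in fed controls against 0.65, -0.17 and 0.43 in fed knockouts, so fasted controls stood alone. It was at least 5.57-fold higher in fasted controls than in fasted knockouts, and no fold can be given for fed liver. The interaction of Slc13a3 was -0.41 with flagged backgrounds kept and -0.67 with the liver channel alone. Lgr5, a receptor for the Wnt enhancers called R-spondins, was likewise well above background only on the 4 fasted controls, at least 5.66-fold above fasted knockouts. With the other 10 arrays not above background, its interaction of -1.45 ± 0.52 has no exact size, and it turned to 0.34 with flagged backgrounds kept and 0.016 with the liver channel alone. Aldh3a2, a fatty aldehyde dehydrogenase, was measured in all controls and was lower by -3.26 in fasted and -2.35 in fed knockouts, an interaction of -0.91 ± 0.29 (unadjusted p = 0.00757).

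Slc1a2, a glutamate carrier of pericentral hepatocytes, gave different interactions on its 4 probes and was picked out after its values were seen. On the brightest probe (chr2:102617706-102617765, mm9) it was 3.5, 3.98 and 4.09 in fed controls, 0.46, 0.53 and 0.23 in fed knockouts, 4.89, 5.03, 5.34 and 5.21 in fasted controls against 0.83, 1.11, 1.24 and 1.70 in fasted knockouts. All 7 knockouts were far below all 7 controls, by -3.90 fasted and -3.45 fed; no fed knockout was well above background, so the fed change is only a bound. The interaction was -0.45 ± 0.28. It was 1.17 with flagged backgrounds kept, 2.78 with processed signals and -1.03 to -0.75 under the other scalings. On the probe at chr2:102630843-102630902 it was 1.92, 2.74 and 3.12 in fed controls, -0.08, 0.34 and 0.28 in fed knockouts, 6.97, 6.94, 7.67 and 7.30 in fasted controls against 0.68, 0.89, 1.04 and 1.34 in fasted knockouts. There fasting raised Slc1a2 by 4.62 in controls and by 0.81 in knockouts, and the interaction was -3.81 ± 0.37 (limma over all probes, adjusted p = 0.00144).

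The other Slc1a2 probes gave -3.04 ± 0.29 (adjusted p = 0.00144) and -2.87 ± 0.32 (adjusted p = 0.00533). None of these 3 probes was well above background on a fed knockout, and among fed controls 1 of them was, on 2 arrays. These probes passed the detection filter through fasted arrays, and their fed difference has only a bound. Neither the size nor the sign of their interaction is therefore settled, and their calls cannot count for a lower interaction. All 3 passed with median centring and equal spread, and their interactions stayed below 0 under every scaling. None passed with flagged backgrounds kept (-1.11 to -0.47) or with the liver channel alone (-1.89 to -1.37), and 1 passed with processed signals.

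Over the whole list of 21 pericentral genes tested, the median knockout change was -0.57 fasted and -0.65 fed, and the median interaction was -0.07, near the -0.01 of all genes; it turned to 0.40 when flagged local backgrounds were kept. Knockouts were lower for 9 of the 21 in fasted liver (0.367% of all genes) and for 5 in fed liver (0.186%), and none was higher. An unadjusted interaction p under 0.05 was reached by 4, all lower (3.85% of all genes): Slc13a3, Aldh3a2, Lgr5 and Cyp27a1. Slc13a3 and Lgr5 passed the detection filter only through the fasted controls, where they were high, so they cannot count for the list.

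Of 14 Wnt target and feedback genes tested, 4 were measured in both states, and the median interaction was -0.11. At an unadjusted p under 0.05 were 5 genes, 4 lower and 1 higher (3.85% and 2.75% of all genes). Of the lower ones, Lgr5, Notum and Znrf3 were not well above background in fed liver, so their interactions have no exact size. Lgr5 and Sp5, also among the lower ones, passed the detection filter only through controls, where they were high, so neither can count for the list. Notum, a secreted inhibitor that removes the lipid from Wnt proteins, was 3.20, 3.13, 2.24 and 3.49 in fasted controls, 0.62, 1.01, 1.50 and 1.57 in fasted knockouts, 1.90 to 2.24 in fed controls against 1.00 to 2.13 in fed knockouts. Fasted controls were above fasted knockouts without overlap, and the fed groups, in which no array had Notum well above background, overlapped. Knockouts were lower by -1.84 in fasted liver (adjusted p = 0.011), and the interaction was -1.38 ± 0.45 (unadjusted p = 0.00907; 0.17 with flagged backgrounds kept). Znrf3, a ligase that clears Wnt receptors from the cell surface, was also measured only in fasted liver; it was 0.36 to 0.80 in fasted controls against -0.12 to 0.39 in fasted knockouts and gave -0.75 ± 0.22.

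Ppara target genes held the gene with the clearest fed-only difference. Cyp4a14 encodes a fatty acid omega-hydroxylase that Ppara induces, and its probe lies at chr4:115158914-115158973 (mm9). Its level was 7.59, 8.06 and 8.02 in fed controls, 5.28, 6.54 and 5.75 in fed knockouts, 7.82, 7.69, 7.64 and 8.12 in fasted controls against 8.00, 7.43, 8.15 and 8.09 in fasted knockouts. The 3 fed knockouts were below the other 11 arrays, which overlapped one another. Knockouts were lower by -2.03 ± 0.28 in fed liver (SE, n = 3 and 3; 4.09-fold; limma, adjusted p = 0.00597), and in fasted liver the difference was 0.10 ± 0.24 (SE, n = 4 and 4; adjusted p = 0.937). Put the other way, fasting raised Cyp4a14 by 2.06 in knockouts (4.17-fold, adjusted p = 0.000111), and the change in controls was -0.08 (adjusted p = 0.846). The interaction was 2.14 ± 0.37 (SE; 95% interval 1.34 to 2.93; unadjusted p = 6.16e-05, adjusted p = 0.359). It was 1.78 without slide 4, and it was only 0.47 when the liver channel was used alone.

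Cyp4a10, the neighbouring omega-hydroxylase gene, was 6.76, 6.89 and 6.61 in fed controls, 5.51, 5.60 and 4.53 in fed knockouts, 7.29, 7.69, 7.73 and 7.81 in fasted controls against 7.33, 6.21, 7.86 and 7.14 in fasted knockouts. Fed knockouts were again the lowest arrays, and the fasted groups overlapped. Its interaction was 1.04 ± 0.47 (unadjusted p = 0.0443), with other probes of the gene at 1.29, 0.15 and -0.43. Cyp4a family members are close in sequence and their probes may share signal.

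**Figure D2:**
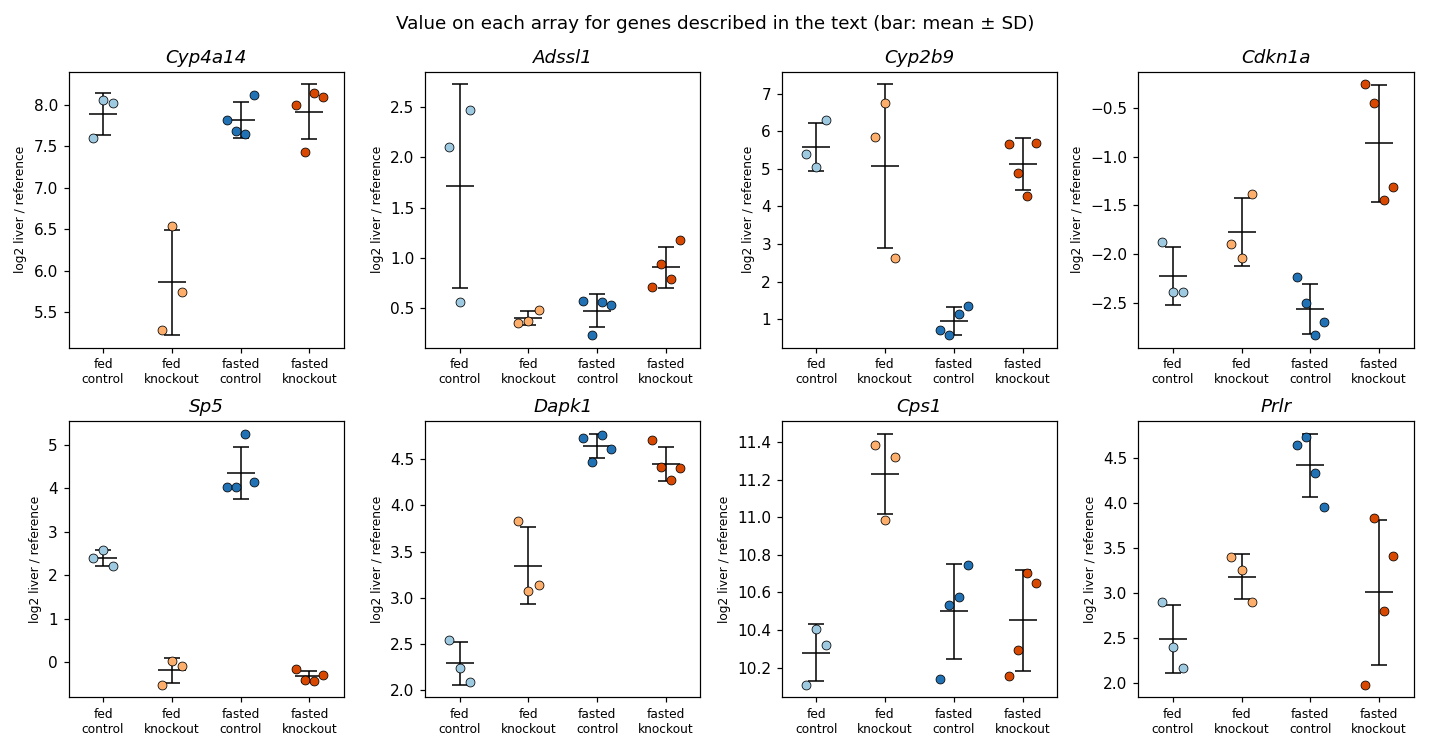
Log2 liver over reference on each of the 14 arrays for Cyp4a14, Adssl1, Cyp2b9, Cdkn1a, Sp5, Dapk1, Cps1 and Prlr, with group mean and SD as bars. Cyp4a14 is low in the 3 fed knockouts, Cyp2b9 is low in the 4 fasted controls, and Sp5 is low in all 7 knockouts.

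The rest of the Ppara list did not follow Cyp4a14. Of 21 targets tested, 8 had an interaction above 0 and 13 below it. The median was -0.20 (0.07 with processed signals, 0.05 with equal spread between arrays and 0.74 with flagged backgrounds kept). In each direction 2 had an unadjusted p under 0.05 (2.75% of all genes higher, 3.85% lower). Fgf21, the fasting hormone that Ppara induces, was among the lower ones. Its level was 2.61, 2.60, 3.21 and 2.32 in fasted controls, 0.90, 0.61, 2.96 and -0.05 in fasted knockouts, 0.65, 0.43 and -0.01 in fed controls against 1.01, 0.15 and 0.57 in fed knockouts. Fasted controls were high, whereas fasted knockouts were spread over the whole range with 1 array among the controls. The interaction of Fgf21 was -1.80 ± 0.74 (unadjusted p = 0.0313), and fasted controls were at least 5.30-fold above fed controls, in which it was not well above background. G0s2, an inhibitor of fat breakdown by adipose triglyceride lipase, was 0.22 and 0.18 in fasted knockouts 1 and 2 and 2.75 to 3.90 on the other 12 arrays. Both low arrays were on slide 1, and the interaction was -2.06 ± 0.91 (unadjusted p = 0.0416).

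Fatty acid oxidation and ketogenesis showed little difference as a group. Of 25 genes, 8 lay above and 17 below 0 (8215 and 8973 of 17188 genes did). The median interaction was -0.04, which turned positive under 4 of the 5 scalings. An unadjusted p under 0.05 in limma was reached by 1, lower (3.85% of all genes). That gene was Hadha, the alpha subunit of the mitochondrial trifunctional protein. Hadha stood at 2.20, 2.08 and 2.18 in fed controls, 2.42, 2.44 and 2.27 in fed knockouts, 2.36, 2.23, 2.30 and 2.49 in fasted controls against 1.95, 1.90, 2.14 and 1.87 in fasted knockouts. Fed knockouts were all above fed controls and fasted knockouts all below fasted controls, by small amounts of 0.23 and -0.38. The interaction was -0.61 ± 0.14 (adjusted p = 0.55), a second Hadha probe gave 0.32, and the liver channel alone gave 0.53, so its direction is not settled.

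Ang and Adssl1 also had their larger difference in fed liver. Ang, angiogenin, a secreted ribonuclease, was 5.48, 5.53 and 5.07 in fed controls, 4.52, 4.17 and 4.43 in fed knockouts, 5.29, 4.82, 5.01 and 5.04 in fasted controls against 4.74, 5.24, 4.87 and 4.77 in fasted knockouts. Fed knockouts were the lowest arrays and fell by 0.99 against fed controls (adjusted p = 0.0383), and the fasted groups overlapped. The interaction of Ang was 0.85 ± 0.23 (adjusted p = 0.55); a second, dimmer Ang probe gave -0.20 and the liver channel alone 0.07. Ang3, a close relative in the same gene cluster, carries only its file name here and was picked out after its values were seen; it gave 0.89 ± 0.23, with a fed knockout change of -1.22 (adjusted p = 0.00788).

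Adssl1, the muscle-type adenylosuccinate synthase, was 2.10, 0.56 and 2.47 in fed controls against 0.35 to 0.48 in fed knockouts, 0.23 to 0.57 in fasted controls against 0.71 to 1.18 in fasted knockouts. Fed controls 1 and 3 stood well above the other 12 arrays. The interaction was 1.74 ± 0.46 (adjusted p = 0.55), and it passed without fed control 2 (2.31, adjusted p = 0.00148), the fed control that lay nearest the knockouts.

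Cyp2b genes had the largest interactions of the xenobiotic list. Cyp2b9, Cyp2b13 and Cyp2b10 encode cytochromes P450. The nuclear receptor CAR induces Cyp2b10, and Cyp2b9 and Cyp2b13 are known as female-biased in mouse liver. Cyp2b9 and Cyp2b13 are neighbouring, near-identical genes on chromosome 7, so their probes may share signal and the genes are uncertain as separate measurements. Cyp2b10 is of the same family and its probe may share signal too, but its sequence was not compared with theirs. The promoters of Cyp2b9 (RefSeq, GRCm38.p6, chr7:26173159-26173408, plus strand) and Cyp2b13 (chr7:26061245-26061494, plus strand) are shown because they differ at only 2 of 250 bases (99.2% identical); capitals mark the differences T48C and C104T, counted from 1 at the 5′ end with the base of Cyp2b9 first.
Cyp2b9: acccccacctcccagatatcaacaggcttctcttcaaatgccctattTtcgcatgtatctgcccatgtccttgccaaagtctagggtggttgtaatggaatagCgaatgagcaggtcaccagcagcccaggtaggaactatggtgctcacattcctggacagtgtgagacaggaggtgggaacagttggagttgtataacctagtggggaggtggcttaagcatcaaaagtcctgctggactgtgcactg
Cyp2b13: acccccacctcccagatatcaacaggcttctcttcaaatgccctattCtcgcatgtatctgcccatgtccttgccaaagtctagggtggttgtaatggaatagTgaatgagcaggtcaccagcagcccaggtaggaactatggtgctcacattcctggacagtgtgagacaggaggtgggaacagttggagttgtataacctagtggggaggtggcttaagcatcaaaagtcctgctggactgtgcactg

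In controls, Cyp2b9 was 5.41, 5.06 and 6.29 fed and 0.72, 0.57, 1.14 and 1.36 fasted; in knockouts it was 5.84, 6.76 and 2.62 fed and 5.66, 4.89, 4.28 and 5.69 fasted. The 4 fasted controls were below all other arrays, and fed knockout 3 was the lowest of the rest and not well above background. Fasting lowered Cyp2b9 in controls by -4.64 (24.9-fold; limma, adjusted p = 0.000483), and the change in knockouts was 0.06 (adjusted p = 0.962). Knockouts were higher by 4.18 ± 0.68 in fasted liver (18.2-fold, adjusted p = 0.0125), and the difference in fed liver was -0.51 ± 0.79. The interaction was 4.69 ± 1.04 (SE; 95% interval 2.44 to 6.95; adjusted p = 0.55), 3.47 without fed knockout 3 and 4.55 without both fasted knockouts of slide 1; a second Cyp2b9 probe gave 1.81. Within slides the knockout difference was 4.63 and 3.74 on the fasted slides and 0.89 and -3.05 on the fed slides.

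Cyp2b13 followed the same order, at 2.74, 2.84 and 5.32 in fed controls, 4.39, 5.38 and 2.01 in fed knockouts, 0.43 to 1.30 in fasted controls against 3.69 to 5.00 in fasted knockouts. Fasted controls again lay below every other array. Its interaction was 3.29 ± 1.02 (unadjusted p = 0.00667) and 1.44 without slide 4, and a second Cyp2b13 probe, also measured in both states, gave 0.56 ± 0.66. Cyp2b10 differed in that fed controls were low too: 0.63, 0.21 and 0.78 fed and -0.10 to 0.56 fasted in controls, against 3.06, 3.48 and 0.91 fed and 3.12 to 4.81 fasted in knockouts. All 7 knockout arrays were above all 7 controls, of which 1 had Cyp2b10 well above background, so the control levels are upper bounds. Knockouts were higher by 3.72 in fasted liver (adjusted p = 0.00175), the fed difference of 1.94 did not pass (adjusted p = 0.315), and the interaction was 1.78 ± 0.72 (unadjusted p = 0.0289) and 0.99 without fed knockout 3. Over all 20 CAR and PXR targets tested the median interaction was -0.03 (0.03 to 0.85 under the 5 other scalings). At an unadjusted p under 0.05 were 4 higher and 0 lower (2.75% and 3.85% of all genes).

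For Dapk1, fed knockouts stood above fed controls while the fasted groups overlapped. Dapk1, a kinase linked to cell death and autophagy, was 2.54, 2.24 and 2.09 in fed controls, 3.83, 3.07 and 3.14 in fed knockouts, 4.72, 4.47, 4.76 and 4.61 in fasted controls against 4.70, 4.41, 4.27 and 4.40 in fasted knockouts. All 8 fasted arrays were above all 6 fed arrays. Fasting raised it by 2.35 in controls (adjusted p = 4.32e-06) and by 1.1 in knockouts (adjusted p = 0.000598). The fed knockout change was 1.05 (adjusted p = 0.0486), the fasted one -0.20 (adjusted p = 0.735), and the interaction was -1.25 ± 0.25 (adjusted p = 0.55); a second probe gave -0.46.

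Ebpl and Entpd8 had this form with smaller steps. Ebpl, a relative of the sterol isomerase Ebp, was raised by fasting by 0.78 in controls (adjusted p = 0.000473), the change in knockouts was 0.04, and the interaction was -0.74 ± 0.17. Entpd8, an ectonucleotidase of the bile canaliculus, was raised by 1.15 in controls (adjusted p = 0.000112), the change in knockouts was 0.25, and the interaction was -0.90 ± 0.21. For Anks4b, a scaffold protein of the microvillus, fed knockouts stood at 5.97 to 6.33 against 4.85 to 5.62 in fed controls, and the interaction was -1.09 ± 0.25; it passed without slide 4 (-1.69, adjusted p = 0.0236). All 4 genes turned positive when flagged local backgrounds were kept.

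In Blvrb, Bmf and Prlr every fasted control was above every fasted knockout. Blvrb, the NADPH-dependent biliverdin reductase, was 2.36, 2.25 and 2.19 in fed controls, 1.80, 1.35 and 2.06 in fed knockouts, 3.60, 3.32, 3.61 and 2.86 in fasted controls against 1.44, 1.48, 1.49 and 1.82 in fasted knockouts. Fasted controls were the highest arrays and fasted knockouts overlapped fed ones. Fasting raised Blvrb by 1.08 in controls (adjusted p = 0.00108), the change in knockouts was -0.18, knockouts were lower by -1.79 in fasted liver (adjusted p = 0.000249), and the interaction was -1.26 ± 0.28 (adjusted p = 0.55), -0.70 with flagged backgrounds kept and -0.30 with the liver channel alone.

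Bmf, a pro-apoptotic member of the Bcl2 family, was 3.46, 3.01 and 3.67 in fed controls, 3.06, 4.31 and 3.78 in fed knockouts, 4.67, 4.09, 3.86 and 4.19 in fasted controls against 2.87, 3.18, 2.93 and 2.84 in fasted knockouts. Both fasting changes passed and ran in opposite directions, 0.82 in controls (adjusted p = 0.0272) and -0.76 in knockouts (adjusted p = 0.039). The interaction was -1.58 ± 0.37 (adjusted p = 0.55), and it turned to 0.62 with flagged backgrounds kept; a second Bmf probe gave -0.15.

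Prlr, the prolactin receptor, stood at 2.90, 2.41 and 2.17 in fed controls, 3.40, 3.25 and 2.91 in fed knockouts, 4.65, 4.74, 4.34 and 3.96 in fasted controls against 1.99, 3.84, 2.80 and 3.42 in fasted knockouts. Fasted controls were the highest arrays, every fed knockout was above every fed control, and fasted knockouts overlapped both fed groups. Fasting raised Prlr by 1.93 in controls (adjusted p = 0.00124), and the change in knockouts was -0.18. The interaction was -2.10 ± 0.50 (unadjusted p = 0.00108), and the gene's other probes gave -1.61 and -0.62; it was -0.07 with flagged backgrounds kept. Igfals, the carrier of circulating IGF complexes and a growth hormone target, gave -0.45 ± 0.17 (0.92 with flagged backgrounds kept), while the 14 genes of the growth hormone and IGF axis split 7 above and 7 below 0.

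The other leading genes of higher interaction had fasted knockouts above fasted controls. Miip, a regulator of cell migration, was lowered by fasting from 0.10 to 0.32 in fed controls down to -2.20 to -1.40, and in knockouts from 0.14 to 0.37 down only to -0.90 to -0.22. The 4 groups did not overlap except for fed controls with fed knockouts. Its fasting change was -2.01 in controls and -0.89 in knockouts, the fasted knockout change was 1.16 (adjusted p = 0.00705), and the interaction was 1.12 ± 0.26 (adjusted p = 0.55). Pvr, the poliovirus receptor and a cell adhesion molecule, was -1.56 to -1.15 in fasted controls against 0.41, 0.28, -0.69 and -0.98 in fasted knockouts; the interaction of 1.41 ± 0.39 dropped to 0.82 without both fasted knockouts of slide 1, and other Pvr probes gave -0.38 to 1.1. Nlrp12, an inhibitory receptor of innate immunity, had 3 fasted controls at 0.21 to 0.53 and fasted control 3 at 5.00, near the fasted knockouts at 4.57 to 4.82; the interaction was 4.79 ± 1.29, and 5.95 with an adjusted p of 0.00155 without that array, while a second Nlrp12 probe gave 0.88 ± 0.62 and median centring 2.5. Sympk, Ccdc61 and Rbms1 gave interactions of 1.32 ± 0.36, 0.85 ± 0.22 and 0.69 ± 0.18.

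For genes of nitrogen disposal the median knockout difference was above 0 in fed liver and near 0 in fasted liver; no urea cycle gene passed the knockout test in either state. Cps1, carbamoyl phosphate synthetase, makes the first committed intermediate of urea, and its probe lies at chr1:67277466-67277525 (mm9). Cps1 was 10.11, 10.41 and 10.32 in fed controls, 11.39, 10.99 and 11.32 in fed knockouts, 10.14, 10.53, 10.58 and 10.74 in fasted controls against 10.16, 10.29, 10.70 and 10.65 in fasted knockouts. The 3 fed knockouts were above the other 11 arrays. Fasting lowered Cps1 in knockouts by -0.78 (limma, adjusted p = 0.00405), the change in controls was 0.22, the fed knockout difference of 0.95 did not pass (adjusted p = 0.0685), and the interaction was -1.0 ± 0.24 (unadjusted p = 0.00124, adjusted p = 0.55). On the fed slides the knockout difference was 1.08 and 0.96, on the fasted slides -0.11 and 0.02. With the processed signals of the scanner software the interaction of Cps1 was 0.05, and with flagged local backgrounds kept 0.17.

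Otc, ornithine transcarbamylase, the next mitochondrial step, gave an interaction of -0.60 ± 0.22 (unadjusted p = 0.0183). Ass1, argininosuccinate synthase, was lowered by fasting by -1.64 in controls and -2.15 in knockouts and gave -0.52 ± 0.20 (unadjusted p = 0.0206). Over the 8 urea cycle genes 7 lay below 0 (8973 of 17188 genes did), 3 of them at an unadjusted p under 0.05 in limma (3.85% of all genes). The median interaction was -0.46. That median stayed below 0 under median centring (-0.34), liver channel alone (-0.49), processed signals (-0.15) and equal spread (-0.07) and turned to 0.37 with flagged backgrounds kept.

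Amino acid catabolism had 19 of 21 genes below 0 (8973 of 17188 genes were) and 7 at an unadjusted p under 0.05, all lower (3.85% of all genes), with a median of -0.25 (-0.03 with equal spread between arrays, 0.06 with flagged backgrounds kept). Sds, serine dehydratase, was 6.16, 5.89 and 5.97 in fed controls, 6.42 to 6.60 in fed knockouts, 5.37 to 5.67 in fasted controls against 5.16 to 5.56 in fasted knockouts. Fed knockouts were above fed controls without overlap, and the fasted groups overlapped. Sds fell with fasting by 0.46 in controls (adjusted p = 0.0083) and by 1.09 in knockouts (adjusted p = 3.73e-05), an interaction of -0.62 ± 0.17 (adjusted p = 0.55). Hal, histidine ammonia-lyase, gave -0.38 ± 0.13 and Aass, which starts lysine breakdown, -0.78 ± 0.29. With the liver channel alone Sds gave 0.25 and Hal 0.23.

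The periportal list shares Cps1, Sds and Hal with these lists and gave 16 of 19 genes below 0 (8973 of 17188 genes were). At an unadjusted p under 0.05 were 7, all lower (3.85% of all genes). The median of -0.32 turned to 0.04 with the liver channel alone and 0.37 with flagged backgrounds kept. Gluconeogenesis did not stand out: 12 genes had a median of -0.03, positive under all 5 other scalings, and G6pc, glucose-6-phosphatase, gave -0.29 ± 0.15 (unadjusted p = 0.0776). In these arrays G6pc fell with fasting by 0.80 in controls (adjusted p = 0.000146) and by 1.09 in knockouts (adjusted p = 1.75e-05). Glycolysis and fructose entry gave a median of -0.04 over 15 genes, positive under the 5 other scalings.

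**Figure D3:**
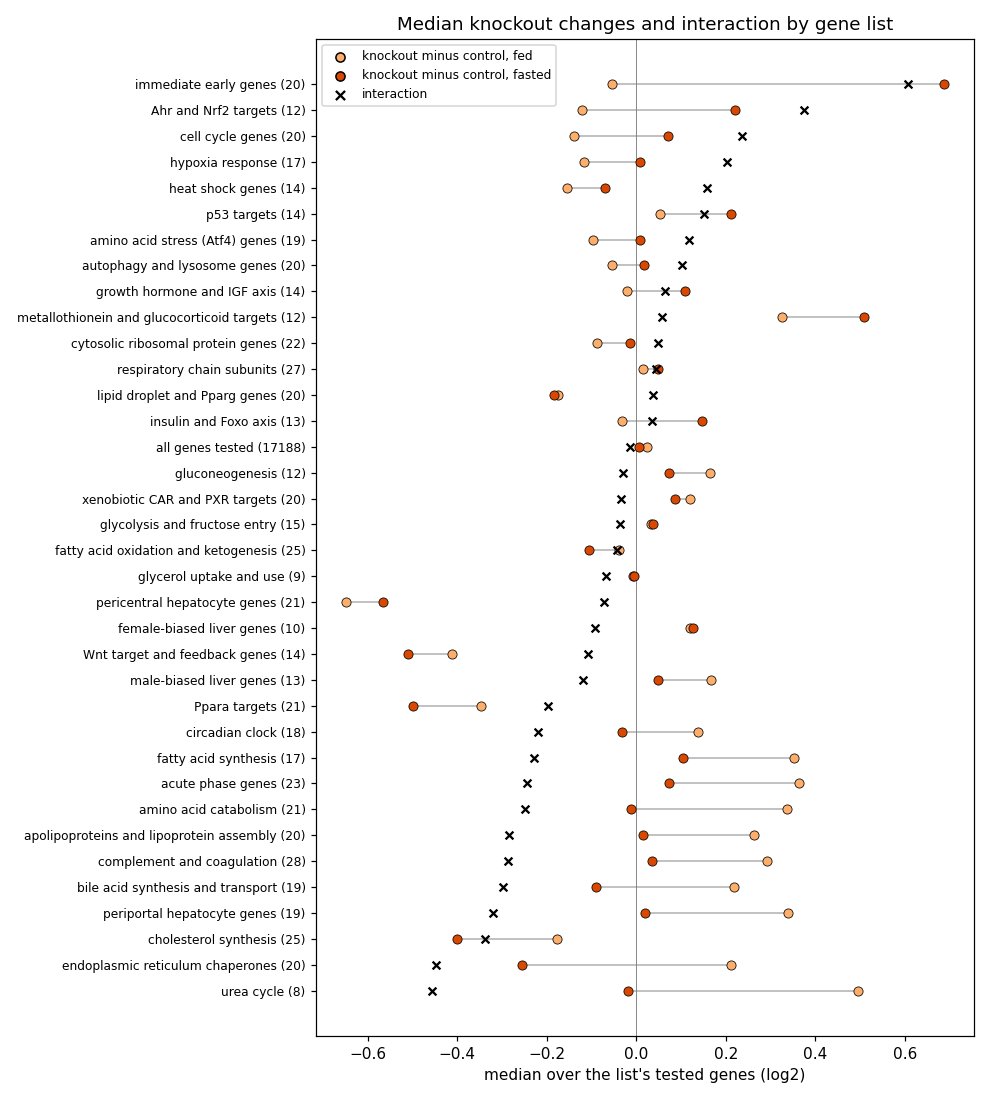
Median over each pathway gene list of knockout minus control in fed liver (light points), in fasted liver (dark points) and of the interaction (crosses), in log2, with the number of genes tested in brackets and all 17188 genes as a row of their own. Among these lists, urea cycle and endoplasmic reticulum chaperone genes have the lowest crosses and immediate early genes the highest; with flagged local backgrounds kept the urea cycle cross turns to 0.37.

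Secreted liver products had the same sign. Complement and coagulation genes lay below 0 for 26 of 28 (8973 of 17188 genes were), with 1 lower at an unadjusted p under 0.05 (3.85% of all genes). Their median was -0.29 (0.03 with equal spread between arrays, 0.32 with flagged backgrounds kept). Acute phase genes had 18 of 23 below 0 and 5 at an unadjusted p under 0.05, all lower (3.85% of all genes). Their median was -0.24 (0.16 with flagged backgrounds kept). Orm2, an acid glycoprotein of the acute phase, was 7.03, 7.20 and 6.82 in fed controls against 8.18, 7.82 and 7.49 in fed knockouts and overlapped in fasted liver at 6.39 to 6.87; its interaction was -0.74 ± 0.23 (unadjusted p = 0.00766). Fgb, the fibrinogen beta chain, gave -0.62 ± 0.21 and Apcs, serum amyloid P, -0.46 ± 0.17; Orm2 and Apcs turned positive with flagged backgrounds kept. For 20 apolipoprotein and lipoprotein assembly genes the median was -0.28 (0.01 with the liver channel alone, 0.04 with equal spread), and 17 lay below 0 (8973 of 17188 genes did).

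Bile acid synthesis and transport had 16 of 19 genes below 0 (8973 of 17188 genes were) and 3 lower at an unadjusted p under 0.05 (3.85% of all genes). The median was -0.30 (0.54 with flagged backgrounds kept). Klb, the co-receptor that lets the liver answer to Fgf15 and Fgf21, was raised by fasting by 1.61 in controls (adjusted p = 7.8e-06) and 1.07 in knockouts (adjusted p = 0.000107) and gave -0.54 ± 0.19. Slco1a1, an organic anion uptake carrier, gave -0.81 ± 0.34, and Cyp27a1, the sterol 27-hydroxylase, -0.38 ± 0.17; all 3 turned positive with flagged backgrounds kept.

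Spread and background also differed among the fed arrays and are set here beside these liver-abundant lists. The 7 hepatocyte markers tested, albumin and transthyretin among them, were all measured in both states and had a median interaction of -0.29 with 6 below 0 (0.03 with equal spread). Over the 7780 genes measured in both states, the SD of the log2 ratios was 2.30 and 2.27 on fed knockouts 1 and 2. It was 2.15 to 2.19 on fed controls, 2.16 on fed knockout 3 and 2.07 to 2.16 on fasted arrays. Negative-control signal was 89.5 and 88 units on fed knockouts 1 and 2, 180.5 on fed knockout 3 and 106 to 123 on fed controls. The urea cycle mean was 6.63, 6.59 and 6.45 on fed knockouts 1 to 3 and 5.99 to 6.15 on fed controls. The part of spread and background in the list medians was not tested beyond the equal-spread setting. Under it the medians of the hepatocyte, urea cycle, amino acid, periportal, acute phase, complement, apolipoprotein and bile acid lists lay between -0.07 and 0.04.

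Endoplasmic reticulum chaperones kept their direction under every scaling. Of 20 genes 18 lay below 0 (8973 of 17188 genes did), with a median of -0.45 and a range of -0.52 to -0.31 over the 5 other scalings. At an unadjusted p under 0.05 were 3, all lower (3.85% of all genes). Fasting raised 12 of the 20 in controls and lowered none (20.2% and 16.6% of all genes), whereas in knockouts it raised 5 and lowered 3 (18.7% and 17%). Median knockout differences were 0.31 and 0.36 on the fed slides and -0.25 and -0.16 on the fasted slides. Derl3, which helps to carry misfolded proteins out of the reticulum, was 3.77, 1.64, 1.36 and 2.67 in fasted controls, 0.41, 0.91, 1.70 and 2.04 in fasted knockouts, 0.21, -0.51 and -0.58 in fed controls against 0.45, 0.86 and 0.85 in fed knockouts. Fasted controls and fasted knockouts overlapped, and every fed knockout was above every fed control. Its fasting change was 2.65 in controls (adjusted p = 0.00166) and 0.54 in knockouts (adjusted p = 0.43), an interaction of -2.11 ± 0.72 (unadjusted p = 0.0121). Pdia4, a disulfide isomerase, gave -0.61 ± 0.23, and Calr, the lectin chaperone calreticulin, -0.65 ± 0.29 from 13 arrays, the spot of fasted control 3 being flagged and left out.

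Cholesterol synthesis also stayed below 0 under every scaling, at a median of -0.34 (-0.40 to -0.03 over the 5 other scalings). Of its 25 genes 21 lay below 0 (8973 of 17188 genes did). Only Sc5d, sterol C5-desaturase, had an unadjusted p under 0.05, at -0.64 ± 0.28; Fdps, farnesyl diphosphate synthase, gave -0.98 ± 0.46 and Insig1, the sterol sensor of the reticulum, -0.82 ± 0.38. Fasting lowered 13 of the 25 in controls and 18 in knockouts (16.6% and 17% of all genes), and raised none in controls and 1 in knockouts (20.2% and 18.7%). Without fed knockout 3 the median was -0.09. Fatty acid synthesis gave a median of -0.23 over 17 genes, with Fads2, the delta-6 desaturase, at -0.65 ± 0.25; the median turned to 0.07 without fed knockout 3 and to 0.14 with flagged backgrounds kept.

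Immediate early genes, which stimuli and tissue handling switch on within minutes, had the highest median of the pathway lists. All 20 tested, 10 of them measured in both states, had an interaction above 0 (8215 of 17188 genes did), with a median of 0.61 that stayed between 0.52 and 0.78 under the 5 other scalings; 3 had an unadjusted p under 0.05 (2.75% of all genes higher). The mean over the list was -0.78 and -1.01 in fasted knockouts 1 and 2 and -1.49 and -2.12 in fasted knockouts 3 and 4, against -2.32 to -1.98 in fasted controls and -2.17 to -1.70 on fed arrays. Fasted knockout 4 lay within the controls and the other 3 above them. Without both fasted knockouts of slide 1 the median was 0.25.

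Btg2, an antiproliferative gene that p53 also induces, shows the pattern by array. Its promoter (RefSeq, GRCm38.p6, chr1:134079156-134079405, minus strand) is shown because it holds a full cyclic AMP response element, the motif of the CREB family that glucagon signals reach; capitals mark TGACGTCA, 166 to 159 bases before the start.
Btg2: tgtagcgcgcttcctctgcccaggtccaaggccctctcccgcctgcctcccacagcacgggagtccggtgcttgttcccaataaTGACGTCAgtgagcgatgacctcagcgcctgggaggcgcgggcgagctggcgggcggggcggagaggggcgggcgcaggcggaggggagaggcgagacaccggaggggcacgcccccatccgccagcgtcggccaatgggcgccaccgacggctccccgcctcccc
The full element, which contains the shorter half-site TGACGT, occurs on either strand in 1.55% of RefSeq promoters and the half-site in 6.47%. Among the 17 immediate early genes with an entry, the half-site was found in 6 (Atf3, Btg2, Dusp1, Egr2, Fos and Ppp1r15a) and the full element in Btg2, Dusp1 and Ppp1r15a. Here too the shares are per promoter, whereas a gene was counted if any of its promoters matched.

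Btg2 was 0.96, -0.27, -0.63 and -1.62 in fasted knockouts, -1.79 to -1.69 in fasted controls, -2.48 to -1.91 in fed controls against -2.51 to -1.97 in fed knockouts. All fasted knockouts were above all fasted controls, though fasted knockout 4 only just, and the fed groups overlapped. The interaction was 1.38 ± 0.59 (unadjusted p = 0.0352) and 0.64 without both fasted knockouts of slide 1. Fos, a subunit of AP-1, was -3.86, -3.86, -3.54 and -4.76 in fasted knockouts and -4.88 to -4.51 in fasted controls, was not well above background on the fed arrays, and gave 0.82 ± 0.32 (-0.60 with flagged backgrounds kept). Nr4a1, an orphan nuclear receptor that glucagon induces, gave 0.82 ± 0.33. Egr1, a zinc finger factor, ran from -5.32 to -0.47 among fasted knockouts and gave 1.24 ± 1.20, which turned to -0.18 without both fasted knockouts of slide 1.

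Cdkn1a, the cell cycle inhibitor p21 and a p53 target, was -2.24, -2.50, -2.84 and -2.70 in fasted controls, -0.26, -0.45, -1.44 and -1.31 in fasted knockouts, -1.88, -2.39 and -2.39 in fed controls against -1.90, -2.04 and -1.38 in fed knockouts. Fasted knockouts were above fasted controls without overlap, and the fed groups overlapped. Knockouts were higher by 1.71 in fasted liver (adjusted p = 0.0084), the fed difference was 0.45, and the interaction was 1.26 ± 0.40 (unadjusted p = 0.00796) or 0.75 without both fasted knockouts of slide 1 and 0.68 with flagged backgrounds kept. Of 14 p53 targets 11 lay above 0 (8215 of 17188 genes did), with a median of 0.15 that stayed above 0 under every scaling. At an unadjusted p under 0.05 were 3, all higher (2.75% of all genes). Trp53inp1, a stress protein that p53 induces, was 4.06, 3.38, 2.37 and 1.57 in fasted knockouts, 0.05 to 1.44 in fasted controls and -0.04 to 0.68 on fed arrays. Fasted knockouts were above all other arrays, and the interaction was 1.60 ± 0.68 (unadjusted p = 0.0336).

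Mt2, a metallothionein that glucocorticoids and metals induce, was 0.49, 1.45, 0.24 and -3.31 in fasted knockouts, -4.58 to -2.12 in fasted controls and -5.79 to -4.81 on fed arrays. Fasted knockouts 1 to 3 were high and fasted knockout 4 lay within the controls. Fasting raised Mt2 by 5.06 in knockouts (adjusted p = 0.00096), the change of 1.83 in controls did not pass (adjusted p = 0.125), and the interaction was 3.23 ± 1.26 (unadjusted p = 0.0234). Mt1 gave 1.88 ± 0.93. The metallothionein and glucocorticoid target list, which also holds Cdkn1a, had a median of 0.06 over 12 genes, with 8 above and 4 below 0. That median was -0.19 without slide 4. At an unadjusted p under 0.05 in limma were 2 of the 12, Cdkn1a and Mt2, both higher (2.75% of all genes).

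**Figure D4:**
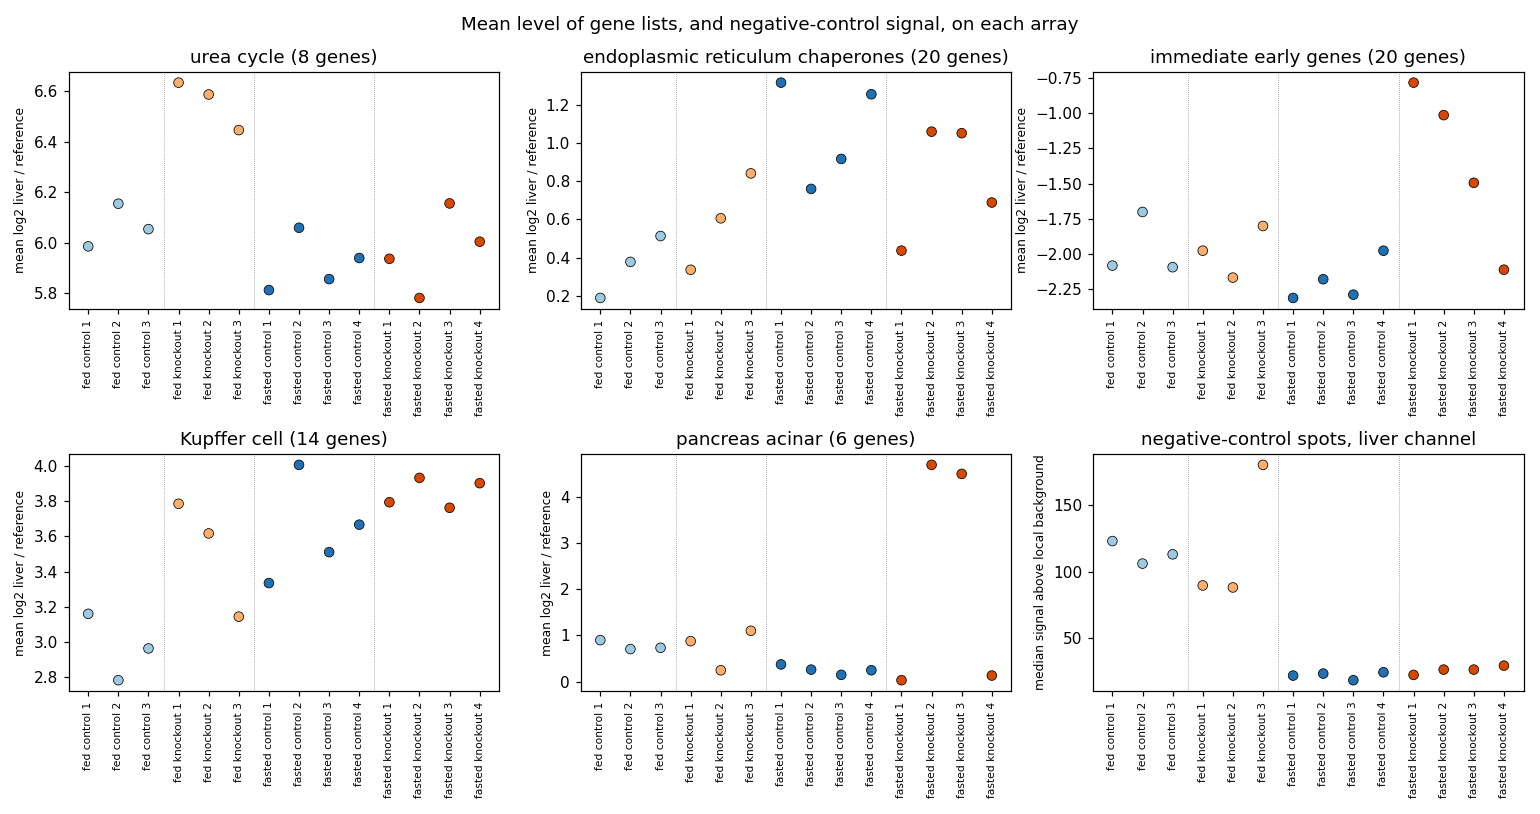
Mean log2 liver over reference of 5 gene lists on each of the 14 arrays, and in the last panel the median liver-channel signal of negative-control spots above local background in intensity units. Immediate early genes are highest in fasted knockouts 1 and 2, pancreas acinar genes in fasted knockouts 2 and 3, and the urea cycle mean in fed knockouts.

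Markers of other cell types were set beside these results. Pancreas acinar genes, digestive enzymes of the pancreas, had a mean of 4.69 and 4.49 in fasted knockouts 2 and 3. It was 0.03 and 0.13 in fasted knockouts 1 and 4, 0.15 to 0.37 in fasted controls and 0.24 to 1.1 on fed arrays. Of the list, Cel was well above background on every fasted knockout. All 6 tested had an interaction above 0 (8215 of 17188 genes did), with a median of 1.79, and none was measured in both states. Ctrb1, chymotrypsinogen, was 3.46 and 3.44 in those arrays and 0.28 to 1.22 on all others. Fasted knockout 2 had the highest pancreas mean and the second highest immediate early mean, and fasted knockout 1 had the highest immediate early mean and the lowest pancreas mean.

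Neutrophil and myeloid precursor markers had a mean of 1.43, 2.02, 1.06 and 0.36 in fasted knockouts, 0.40 to 0.95 in fasted controls and -0.06 to 0.69 on fed arrays. Fasted knockouts 1 to 3 were above the fasted controls, with fasted knockouts 1 and 2 the highest, as for the immediate early genes. Of 7 tested, 6 lay above 0 with a median of 0.48, and 1 was measured in both states. Cholangiocyte markers, of the bile duct cells, had a mean of -1.45, -1.60, -2.15 and -2.37 in fasted knockouts, -2.51 to -2.13 in fasted controls and -2.39 to -1.97 on fed arrays, fasted knockouts 1 and 2 being again the highest. Their median interaction was 0.37 over 7 genes, 5 above 0, and turned to -0.12 with flagged backgrounds kept and -0.21 with processed signals. In neither list did a gene reach an unadjusted p under 0.05 in limma.

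Kupffer cell markers, of the resident macrophages of the liver, had 10 of 14 below 0 (8973 of 17188 genes), 5 at an unadjusted p under 0.05, all lower (3.85% of all genes), and a median of -0.45, which turned to 0.75 with flagged backgrounds kept and was -0.05 with the liver channel alone. Median knockout differences were 0.59 and 0.26 on the fed slides and 0.15 and 0.18 on the fasted slides. Vsig4, a complement receptor of these cells, was 4.41, 4.18 and 4.27 in fed controls, 5.51, 5.18 and 4.26 in fed knockouts and 5.08 to 5.57 in fasted liver. Fed knockouts 1 and 2 were above the fed controls, and fed knockout 3 lay among them. Its interaction was -0.79 ± 0.32; Clec4f, a lectin found on Kupffer cells, gave -0.68 ± 0.24 and Folr2, a folate receptor, -0.63 ± 0.24. Endothelial markers had 10 of 12 below 0 (8973 of 17188 genes were) with a median of -0.29 (0.98 with flagged backgrounds kept). The 12 stellate cell and fibroblast markers had a median of -0.03, whose sign turned under 4 of the 5 other scalings. The part of these cell types in the results was not tested.

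Among the remaining lists, hypoxia response had 3 of 17 genes at an unadjusted p under 0.05 in limma, all higher (2.75% of all genes). Its median of 0.20 was 0.03 to 0.37 under the 5 other scalings. Autophagy and lysosome genes had 3 of 20, all higher, with a median of 0.10 (-0.03 with the liver channel alone). Female-biased liver genes had 2 higher and 1 lower of 10 (2.75% and 3.85% of all genes), namely Cyp2b9, Cyp2b13 and Prlr. The lists that follow had few or none. Respiratory chain subunits had a median of 0.05 over 27 genes, cytosolic ribosomal protein genes 0.05 over 22 (-0.05 with equal spread, -0.02 with flagged backgrounds kept) and the insulin and Foxo axis 0.03 over 13 (-0.01 with processed signals). Heat shock genes were raised by fasting in both genotypes, 9 of 14 in controls and 11 in knockouts (20.2% and 18.7% of all genes), with a median interaction of 0.16 and 0 at an unadjusted p under 0.05 in limma. Circadian clock genes had a median of -0.22 over 18 genes, 0.01 with median centring, and 0 at an unadjusted p under 0.05. Ahr and Nrf2 targets lay above 0 for 10 of 12 (8215 of 17188 genes did), with a median of 0.37 that stayed above 0 under every scaling. Of them 0 reached an unadjusted p under 0.05 in limma.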

How the data were processed

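Liver RNA of 14 adult mice was measured on Agilent 2-colour arrays. The authors deposited spot and background intensity values, processed intensity values and log10 ratio values of red over green from Agilent Feature Extraction (10.5.1.1 per the file headers, 8.5.1.1 per the submitters' processing notes), with probe positions on mm9. The deposited table of log10 ratios equals those of the array files (largest difference 0). Deposited flags and probe names, unit other, were used as given, and 0 columns of other samples were left unread.

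Median intensity values were corrected with normexp (offset 50), flagged local backgrounds being replaced by the array's median, normalized by loess within arrays with control spots at weight 0, turned to liver over reference and averaged per probe in limma 3.58.1 (R 4.3.3). Of 41174 probes, 32806 were named through RefSeq (GRCm38.p6) and 8368 kept the file's name, 25 of them because the RefSeq gene lay on another chromosome. Probes with the liver channel well above background on at least 3 arrays were kept and the brightest probe per gene was used, giving 17188 genes, 156 of which lacked a value on some array. One mean per group was fitted with lmFit and eBayes, two-sided, with Benjamini-Hochberg adjustment over all genes at 0.05; scripts were tested on simulated data. For spots not well above background, the fold is at least the brighter mean over the lowest signal well above background. The p-values cover the spread between these arrays, whose number limits the precision.

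Named genes are Tcf7l2, the 10 genes of smallest interaction p in each direction that have a RefSeq symbol and a liver signal well above background throughout at least 1 fasted and 1 fed group, since none passed, the 3 members of smallest p of each list, and bounded genes; the values of 1 of the leading genes are not reported here. Members, lists (45 lists, 697 genes, 648 tested) and alternatives were chosen with earlier results of these data known. Alternatives changed the background correction, the normalization, the dim-probe filter, array weights, a slide or replicate block, the probe per gene and the arrays used. Scalings named in the text are median centring, the liver channel alone, the processed signals, equal spread between arrays, and flagged backgrounds kept.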

Additional observations from a re-analysis of the deposited data

Results flagged for a closer look

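Within groups of 4 arrays, 8 of 132 sets of values had 1 array far from the others; chance gives such a gap in about 1 set in 20. In fasted controls, Sp5 was 5.26 on array 3 (4.02 to 4.14 on the others), Nlrp12 was 5.00 on array 3 (0.21 to 0.53), Adssl1 was 0.233 on array 2 (0.54 to 0.57), and the mean of the male-biased liver genes was 5.02 on array 4 (4.41 to 4.51). In fasted knockouts, Ccdc61 was -1.39 on array 3 (-1.62 to -1.59), Blvrb was 1.82 on array 4 (1.44 to 1.49), the mean of the fatty acid synthesis genes was 1.35 on array 2 (1.54 to 1.56), and the mean of the Wnt target and feedback genes was -0.904 on array 2 (-0.60 to -0.55). Sp5 and Nlrp12 share fasted control 3, and both passed the interaction test in limma without it.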

How the results depend on the processing

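The count of 0 genes passing the interaction test held with slide as a block (1486 genes at an unadjusted p under 0.05), with a replicate block, median centring, normexp offset 0, the liver channel alone, equal spread, array weights and other filters, and without slide 1 or its knockouts. It became 1, Slc1a2, with every probe tested on its own, 11 with processed signals, 44 without slide 4, and 0 to 12 when 1 array was left out (3 without fasted control 3, 1 without fasted knockout 3, 2 without fed control 2, 1 without fed control 3, 7 without fed knockout 1, 1 without fed knockout 2, 12 without fed knockout 3). Of the 20 leading genes, 12 kept their direction in all 30 alternatives. Same-numbered control and knockout arrays had correlations of -0.108 to 0.156, which cannot settle whether they were pairs, the groups being so small. A replicate block gave 42 knockout calls in fasted and 20 in fed liver. Fasting changes could not be fitted with a slide or replicate block, and Aquantile leaves ratios as they are.

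Fasted knockout calls (82) became 126 with slide as a block, 149 with flagged backgrounds kept (120 higher, 29 lower), 39 without the slide 1 knockouts, 16 without slide 1, and 58 to 138 with 1 array left out (138 without fasted knockout 4). Fed knockout calls (37) became 11 with flagged backgrounds kept, 121 without slide 4, 19 with equal spread, and 30 to 99 with 1 array left out (67 without fed knockout 1, 99 without fed knockout 3). Fasting calls became 3838 in controls and 3336 in knockouts with flagged backgrounds kept, 3019 and 3538 over the 7800 genes chosen as measured in both states, fewer genes being tested, and 3813 in controls without slide 4. The causes of the other shifts were not tested.

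Keeping flagged backgrounds raised the median corrected liver signal of fasted controls 1 and 2 from 122 and 108 to 2753 and 1411, local backgrounds there reaching 590602 and 201012. In that setting the interaction reversed for Dapk1 (1.00), Gm9909 (1.61), Entpd8 (1.82), Anks4b (1.60), Hadha (0.10), Ebpl (0.80), Bmf (0.62), Cps1 (0.17), Otc (1.12), Sds (0.75), Aass (0.86), G6pc (0.37), Fos (-0.60), Orm2 (0.31), Apcs (1.21), Slco1a1 (1.85), Klb (1.67), Cyp27a1 (0.65), Lgr5 (0.34), Notum (0.17), Oat (-0.062), Lhpp (0.24), Clec4f (0.55), Folr2 (1.21), Vsig4 (1.47) and Igfals (0.92). The liver channel alone reversed Hadha (0.53), Sds (0.25), Hal (0.23), G6pc (0.18), Klb (0.059), Lgr5 (0.016) and Oat (-0.86). Processed signals reversed Tcf7l2 (-0.17), Cps1 (0.053), Slco1a1 (0.034), Oat (-0.13) and Lhpp (0.13). Egr1 reversed without the slide 1 knockouts (-0.18) and without slide 1 (-0.88). Oat, near 0, reversed with offset 0 (-0.029), median centring (-0.17) and equal spread (-0.61). Lhpp, also near 0, reversed with offset 0 (0.00077), slide as a block (0.030), array weights (0.14), without the slide 1 knockouts (0.21), without slide 1 (0.16) and without slide 4 (0.20). With 1 array left out, Oat ran from -0.19 to 0.28, Lhpp from -0.23 to 0.21 and Tcf7l2 from -0.0070 to 0.30. Fed arrays, with fewer probes well above background, limit what the interaction can show.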

Other observations

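Genes that passed the interaction test under a single alternative often turned up in 1 setting only. With the scanner software's processed signals, 11 genes passed. Among them were the pericentral genes Slc13a3 at -4.39 and Lgr5 at -5.17, the Wnt target Sp5 at -3.31 and the omega-hydroxylase Cyp4a14 at 1.80. The brightest probe of the glutamate carrier Slc1a2, also pericentral, passed in that setting at 2.78, opposite to its other 3 probes, which gave -3.07 to -0.91 there. Leaving out slide 4 gave 44 genes, 33 higher and 11 lower; Adssl1, Anks4b and the tyrosinase relative Dct were among them. Cyp4a14 also passed without fed knockout 2 at 2.48 (limma, adjusted p = 0.0456).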
